A study of Vitis riparia with 12 samples.

Results

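The comparison described here sets shoot tips of the grapevine Vitis riparia that had spent 21 days under a short photoperiod (SD21) against tips of the same age kept under a long one (LD21). Its members were chosen by sample title alone and number 6 of the 12 libraries of the series, 3 in each group. All vines were of 1 genotype, V. riparia PI588259, and were raised at 15 h of light. The LD21 vines stayed at 15 h and the SD21 vines were moved to 13 h, and no other agent or allele is named in the labels. Each library pooled tips from 5 vines, so it averages over plants of a replicate, and a tip spans 4 nodes, so it holds young leaves and internodes beside the apex. The other 6 libraries, LD7 and SD7, were taken from the same photoperiods at day 7 and serve here as an earlier reference.

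In many woody plants shortening days are the first signal of autumn. The leaves sense day length, and the shoot tip answers by ceasing to form new leaves and internodes, forming a dormancy-competent bud, and building up frost protection and reserves. Growth cessation is usually followed through genes of cell division, wall loosening, hormones and storage. The deposited files and the reference gene table give no names for these identifiers (0 of 29970 matched), so families and functions cannot be assigned, and the defining markers of a shoot tip could not be checked. Genes are therefore grouped by what the files do give, which is their level, their locus and their neighbours. Only 4 identifiers are printed, and other loci are given by the coordinates of the files, whose genome build is not given in the sources used here.

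Values are FPKM, fragment counts corrected for the length of the transcript and the size of the library. Library totals ran from 982454 to 1106294 FPKM, absolute depth is unknown, and no batch is recorded in the labels. The 21848 genes that reached 1 FPKM in 3 libraries or more entered a limma test on log2(FPKM + 1), and those with an adjusted p under 0.05 are referred to as called. In bulk tissue, fewer cells of a type and less RNA per cell cannot be told apart.

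The transcript pool of the SD21 tips was concentrated in fewer genes than that of the LD21 tips. The number of genes that together held 50% of the FPKM was 376, 350 and 285 in the SD21 libraries, and 801, 903 and 826 in the LD21 libraries. The groups did not overlap, and the 6 day 7 libraries lay between them, at 535 to 679. The share of the FPKM taken by a library's 100 most abundant genes was 18.1% ± 0.72 (SD, n = 3) for LD21 and 36.9% ± 1.97 for SD21, with 24.1% ± 0.53 for LD7 and 27.0% ± 1.31 for SD7 between them. The day 21 groups thus lay on opposite sides of the day 7 level. A locus on chromosome 19 at 2789636 to 2790200 alone held 8.84% of the SD21 FPKM, so part of this shift came from it. Its share was 0.06% in LD21, 0.15% in LD7 and 0.19% in SD7. With 3 libraries against 3, an exact permutation test cannot give a two-sided p below 0.10.

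The genes behind this shift changed sides between the photoperiods. In all, 24.6% of tested genes were called higher in SD21 than in LD21 and 43.7% lower, together 68.3%, and the libraries of the groups did not overlap in 69.8%. The genes called higher held 63.0%, 60.7% and 64.5% of the FPKM in the SD21 libraries and 17.7%, 19.3% and 22.2% in the LD21 libraries. The genes called lower held 19.5%, 19.6% and 17.3% in SD21 and 63.7%, 60.1% and 58.3% in LD21. These lists were made from the same libraries, so that exchange is a description. The day 7 libraries, which enter the filter and the estimate of the spread but not the contrast, held 29.1% to 34.8% of their FPKM in the first list and 45.5% to 52.2% in the second.

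**Figure D1:**
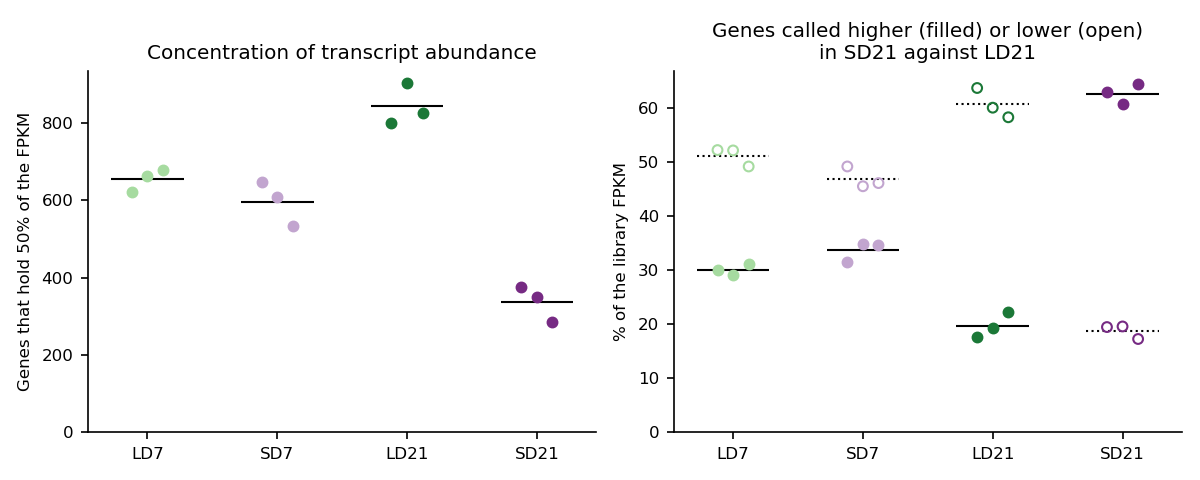
Points are single libraries and bars the mean of 3, by group. On the left, the number of genes that hold 50% of the FPKM was 285 to 376 in SD21 and 801 to 903 in LD21. On the right, filled points give the share of the library FPKM in genes called higher and open points (dotted mean) that in genes called lower in SD21 against LD21, lists chosen by the contrast of the day 21 libraries.

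How many genes fell and how many rose depended on the scaling. As deposited, 36.0% of the 14921 calls were higher in SD21 (5376 higher, 9545 lower) and the log2 fold change had a median of -0.30. The median became 0.02 after quantile normalization, with 7339 higher and 7099 lower, and -0.02 after median-ratio scaling, with 7260 and 7398. Under all 3 scalings, 5363 genes were called higher and 6832 lower. No gene called lower as deposited was called higher after quantile normalization, and none went the other way. Of the larger changes, 1000 of the 1007 genes called higher at least 4-fold were so under all 3 scalings, and 1372 of the 2016 called lower. As deposited, these classes made up 4.61% and 9.23% of tested genes.

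The levels of the genes with large changes are given as a description, since the change itself chose them and a 4-fold change on this scale cannot occur at very low FPKM. Genes called higher at least 4-fold had a median level of 5.02 ± 0.56 FPKM in the LD21 libraries and 42.8 ± 1.39 in the SD21 libraries (SD, n = 3), and together held 31.0% ± 2.77 of the SD21 FPKM against 3.80% ± 0.92 in LD21. Genes called lower at least 4-fold had a median of 28.5 ± 3.19 FPKM in LD21 and 2.42 ± 0.63 in SD21, and their share went from 21.9% ± 2.07 to 2.64% ± 0.49. At 1 FPKM as the limit, 1071 genes lay at or above it in all LD21 libraries and below it in all SD21 libraries, and 548 showed the reverse. Genes listed at 0 in all 3 libraries of one group and at 5 FPKM or more in all of the other numbered 19 for SD21 at 0 and 8 for LD21 at 0.

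Several of the most abundant loci stood far apart between the photoperiods. The most abundant locus of SD21, on chromosome 19 at 2789636 to 2790200, read 93161, 67274 and 127676 FPKM in the SD21 libraries and 473, 353 and 1025 in the LD21 libraries, against 1250 to 2785 at day 7. Its LD21 level thus lay below every day 7 library and its SD21 level far above. The locus that meets it at base 2789636 and begins at 2785038 read 2845, 6958 and 10610 in SD21 and 35.5, 37.9 and 104 in LD21, and how reads at the shared end were assigned is not known. On chromosome 6 at 6106695 to 6109243, the SD21 libraries read 9551, 10250 and 10284 FPKM and the LD21 libraries 655, 962 and 1655 (log2 fold change 3.30 ± 0.26, SE, adjusted p = 5.9e-07). The day 7 libraries lay between the groups, at 2872 to 4097. On chromosome 19 at 18708815 to 18709975, the values were 8713, 15034 and 12892 in SD21 and 1614, 2174 and 2718 in LD21 (2.49 ± 0.22, adjusted p = 1.6e-06). Here too the groups did not overlap, and day 7 lay between them at 3342 to 4976. The second most abundant locus of SD21, on chromosome 17 at 3623302 to 3624351, had another pattern. It read 33385, 31822 and 27069 in SD21 and 5712, 6916 and 9383 in LD21, with 26092 to 32369 at day 7, so SD21 lay near the day 7 level and LD21 far below it (2.09, adjusted p = 1.6e-06). These loci, and those of the next paragraph, come from the 10 most abundant of either group.

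Other leading loci of the long-day tip fell. On chromosome 8 at 10702631 to 10703381, LD21 read 3564, 3088 and 4563 FPKM and SD21 1133, 1143 and 610 (log2 fold change -1.995 ± 0.23, SE, adjusted p = 1.3e-05). It stood higher still at day 7, at 6808 to 9587, so both day 21 groups lay below day 7 and SD21 lower. On chromosome 3 at 5832925 to 5833945, LD21 read 3540, 3456 and 2416 FPKM and SD21 597, 731 and 1066 (-1.99 ± 0.22, adjusted p = 7.6e-06). The SD7 libraries, at 840, 673 and 800, already lay near the SD21 level, while LD7 read 1980, 1770 and 1723. Of the 10 most abundant loci of SD21, 8 were called higher, and of the 10 of LD21, 5 were called lower and 3 higher, with 5 loci in both lists. Over all tested genes, 24.6% were called higher and 43.7% lower, so the LD21 counts were near those shares. The SD21 list was picked by its SD21 level, which favours higher calls. One leading locus had libraries that overlapped, on chromosome 8 at 2532970 to 2533228, with 3003, 8032 and 2809 FPKM in LD21 and 2359, 9641 and 11812 in SD21. It spans 259 bp and was not called (0.66, 95% interval -0.57 to 1.89).

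The leading genes were also exchanged below the top 10. Of the 100 most abundant genes of LD21, 39 were among the 100 of SD21. Against the 100 most abundant of day 7, LD21 kept 63 and SD21 58, so both photoperiods had replaced part of the list by day 21. Single LD21 libraries kept 55 to 73 and single SD21 libraries 56 to 61.

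The rule for single genes named VIT_00s0256g00100 and VIT_00s0226g00170 as the largest rises. The first lies on sequence not placed on a chromosome (Un, 18167341 to 18167599). It read 1363, 376 and 749 FPKM in the SD21 libraries, 1.18, 0 and 2.82 in the LD21 libraries and 0 to 6.67 at day 7. The groups were far apart, although the SD21 libraries ranged widely (log2 fold change 8.49 ± 0.77, SE, adjusted p = 4.2e-06). VIT_00s0226g00170 (Un, 14949259 to 14950130) read 181, 581 and 975 in SD21, 0, 0.49 and 0.85 in LD21 and 0 to 2.16 at day 7 (8.39 ± 0.59, adjusted p = 4.5e-07). Their order depended on the processing, since with a pseudocount of 0.1 the values were 9.98 and 10.25, and it also turned without LD21 replicate 2 or without SD21 replicate 1. The first locus spans 259 bp, short enough for its FPKM to be uncertain with reads of 43 bases.

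The largest falls were of genes well expressed in LD21, as falls of this size on the log2(FPKM + 1) scale require. VIT_07s0130g00030 (chromosome 7, 20130292 to 20131700) read 2356, 1679 and 2109 FPKM in LD21 and 3.72, 1.38 and 3.19 in SD21, from 723 to 1403 at day 7 (log2 fold change -9.13 ± 0.30, SE, adjusted p = 1.7e-08). VIT_09s0018g00510 (chromosome 9, 16727010 to 16727152, 143 bp) read 510, 530 and 434 in LD21 and was listed at 0 in all 3 SD21 libraries, with 224 to 470 at day 7 (adjusted p = 2.5e-09). The LD21 libraries of the first lay above every day 7 library, and those of the second overlapped them.

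The day 21 groups were also set against day 7. For each gene called, the 3 libraries of SD21 and of LD21 were set against the range of the 6 day 7 libraries. Of the 5376 genes called higher in SD21, SD21 alone lay wholly above that range for 59.1%, LD21 alone wholly below it for 10.9%, both held for 15.2% and neither for 14.8%. Of the 9545 called lower, SD21 lay wholly below the range without LD21 lying wholly above it for 51.6%. LD21 lay wholly above it without SD21 wholly below for 11.6%, both held for 24.0% and neither for 12.8%. Over all tested genes another count was used, in which a group could lie outside on either side. There SD21 alone lay outside the range for 38.4% and LD21 alone for 10.4%. Both did, on the same or opposite sides, for 19.8% and neither for 31.4%. Those shares are therefore not directly comparable with the shares of called genes. A called gene had to differ between the groups, so its shares are a description. The range also pools LD7 with SD7, which was already at 13 h. For a gene that had answered to short days by day 7 the range is wider, and SD21 can lie within it.

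Large changes were divided in the same way. Among those higher at least 4-fold, SD21 alone had left the range on the side of its change for 61.2%. That share includes any genes for which LD21 had left the range on the SD21 side. Both groups had left it on opposite sides for 31.9%. Among those lower at least 4-fold the shares were 51.6% and 44.4%. LD21 alone accounted for 3.38% and 2.23% of these large changes. After quantile normalization the share in which SD21 alone had left the range was 60.6% and 55.0%, and after median-ratio scaling 56.7% and 59.5%.

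**Figure D2:**
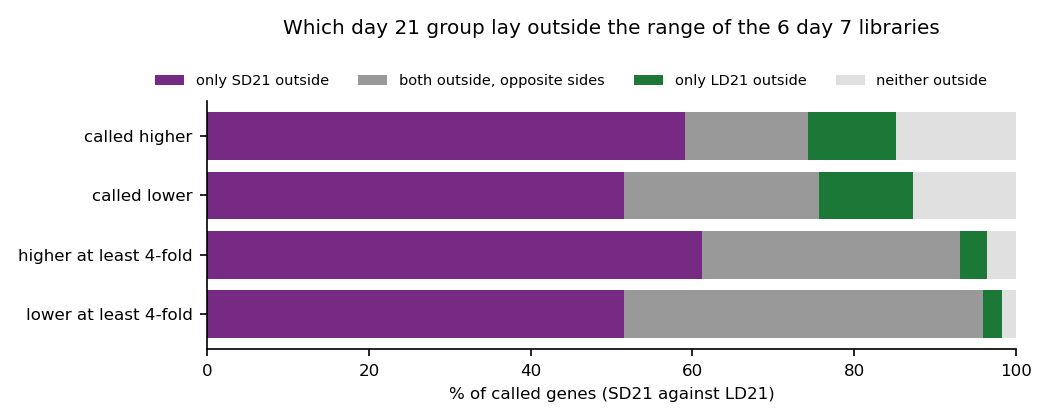
Each bar divides the genes called in SD21 against LD21 by which day 21 group had all 3 libraries outside the range of the 6 day 7 libraries, on the side of its change. The share with only SD21 outside on the side of its change was 59.1% of genes called higher and 51.6% of genes called lower. It includes any genes for which LD21 lay outside on the SD21 side. The share with both groups outside on opposite sides was larger among changes of at least 4-fold.

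The share of genes called lower went with the level that a gene had at day 7. Tested genes were divided into 10 classes of equal size by their mean level in the 6 day 7 libraries, which do not enter the contrast. In class 10, the highest, above 76.2 FPKM, 54.9% were called lower and 25.0% higher, and the median log2 fold change was -0.66. In class 5, around 9.06 FPKM, 45.2% were lower and 23.0% higher, with a median of -0.33. In class 2, the lowest that is nearly free of the filter, 35.9% were lower and 21.6% higher. From class 2 to class 10 the share higher stayed between 21.6% and 25.3%. Changes of genes at low level are compressed on the log2(FPKM + 1) scale, so falls are harder to call there. The part of this limit in the trend was not tested. In class 1, below 1.30 FPKM, 21.6% were lower and 35.7% higher, but 903 of its 2185 genes reached 1 FPKM in 3 of the day 7 libraries, and the others passed the filter only with the help of day 21 libraries. Among the 903, 26.8% were lower and 22.4% higher. Class 1 is therefore not compared with the others.

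The same classes were counted after rescaling. After quantile normalization class 10 had 50.3% lower and 28.7% higher with a median of -0.48, class 5 30.5% lower and 34.8% higher with a median of 0.04, and class 2 21.3% lower and 32.5% higher. With median-ratio scaling class 10 had 46.4% lower and 31.7% higher, and class 2 27.2% and 28.1%. The larger side of classes 2 and 5 thus depended on the scaling, and that of class 10 was lower under all 3.

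**Figure D3:**
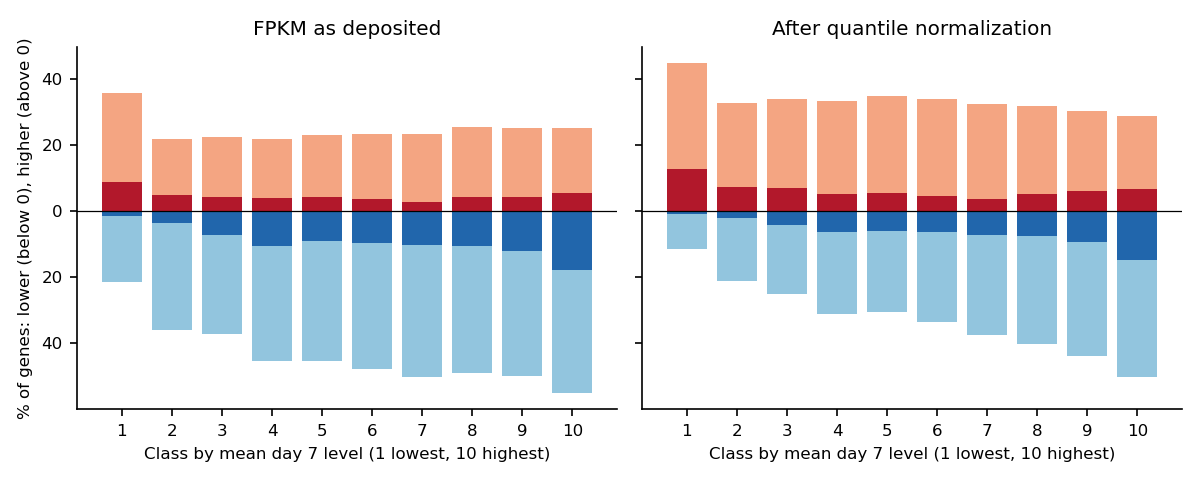
Bars give the percentage of tested genes called higher (above 0) and lower (below 0) in SD21 against LD21, by class of mean day 7 level, with changes of at least 4-fold in dark colour. Class 10 had 54.9% lower as deposited and 50.3% after quantile normalization. Most genes of class 1 passed the filter only with the help of day 21 libraries, so its bar is not comparable.

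The size of the change differed between classes of locus span. The median absolute log2 fold change was 0.95 for loci of 1001 to 2000 bp (3744 genes), 0.85 for 2001 to 5000 bp, 0.71 for 5001 to 10000 bp and 0.59 above 20000 bp (1067 genes). Rises of at least 4-fold made up 7.48% of genes at 1001 to 2000 bp and 1.59% above 20000 bp, and falls of at least 4-fold 11.7% and 2.91%. After quantile normalization the same classes had 9.80% and 1.97% for rises and 8.68% and 1.41% for falls. The median day 7 level was 7.60 FPKM in the first class and 10.7 in the last, and its part in this difference was not tested. Span here is that of the locus, introns included. Rises of at least 4-fold did not continue the order in shorter loci. They made up 7.36% for 501 to 1000 bp, 4.35% for 201 to 500 bp and 3.25% for 200 bp or less (154 genes). Falls of at least 4-fold made up 10.4%, 10.8% and 9.09% of these classes. Their median absolute log2 fold change was 0.92, 0.93 and 1.13, so by that measure the shortest class had the largest value. These medians cover all tested genes, called or not. Of the shortest class, 7.79% were called higher and 17.5% lower, against 30.3% and 38.5% at 1001 to 2000 bp.

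Neighbouring genes tended to change alike. Of adjacent pairs on the 19 numbered chromosomes in which both genes were called, 61.5% had the same direction, against 57.8% of pairs 2 genes apart, 54.6% of those 5 apart and 54.2% of those 200 apart. Next to a gene higher at least 4-fold, 15.5% of genes were higher at least 4-fold as well, where 4.60% of all genes on these chromosomes were. Next to a gene lower at least 4-fold the share was 14.8%, against 9.35%. Both shares were near the overall level from 5 genes apart onward, at 5.67% and 8.68%. These are counts of neighbours, which are not independent, and near-identical or overlapping neighbours can share reads.

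The longest runs of consecutive tested genes changed at least 4-fold held 10 genes that rose and 6 that fell. The genes of a run changed in the same direction by definition. The run of 10, on chromosome 4 at 7244107 to 7498072, summed to 432, 473 and 305 FPKM in the SD21 libraries and 33.6, 66.9 and 72.7 in the LD21 libraries. At day 7 the sums were 122, 126 and 124 in LD7 and 60.5, 90.6 and 70.2 in SD7, so this array stood lower under short days at day 7 and higher at day 21. The run on chromosome 8 at 9345847 to 9437625 held 5 tested genes, of 6 listed in the span. Its sums were 5.25, 4.90 and 9.72 FPKM in LD21 and 188, 160 and 300 in SD21. The day 7 sums, 14.3 ± 2.01 in LD7 and 12.1 ± 2.62 in SD7 (SD, n = 3), were far below SD21. Over all libraries, 1 gene held 62.1% of the level of this run.

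Other short runs rose from near silence. On chromosome 10 at 5939778 to 6014808, 5 genes summed to 1.23 to 3.28 FPKM in LD21, 1.16 to 2.97 at day 7 and 81.5, 55.1 and 100 in SD21. On chromosome 9 at 22255625 to 22345616, 5 genes summed to 0.74 to 2.19 in LD21, 1.25 to 4.60 at day 7 and 44.6, 26.9 and 33.2 in SD21. In both, SD21 stood apart from all 9 other libraries. The genes of these runs were chosen for a rise of at least 4-fold. Genes this low elsewhere can pass the filter of 1 FPKM in 3 libraries through SD21 alone. That SD21 stood apart, from low levels elsewhere, is therefore partly built in.

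The runs that fell at least 4-fold had higher LD21 sums than those that rose, which is partly built in by the direction of change. On chromosome 19 at 6781986 to 6843222, 6 genes summed to 871, 1014 and 768 FPKM in LD21 and 6.04, 40.9 and 26.0 in SD21, with log2 fold changes of -6.76 to -2.37. Day 7 lay at 196 to 506, so LD21 lay wholly above the day 7 sums and SD21 wholly below. The most abundant genes of this run averaged 459 and 359 FPKM in LD21, and the others 32.3 or less. On chromosome 10 at 856029 to 883212, 5 genes summed to 519, 512 and 635 in LD21 and 33.3, 60.8 and 22.4 in SD21. They stood at 575, 577 and 653 in LD7 and at 1260, 705 and 1281 in SD7, so the short-day sums were the higher ones at day 7 and the lower ones at day 21. Over all libraries, 1 gene held 66.2% of the level of this run. On chromosome 14 at 26547200 to 26686575, 6 genes summed to 250, 155 and 116 in LD21 and 15.6, 33.5 and 8.34 in SD21, from 134 to 268 at day 7.

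**Figure D4:**
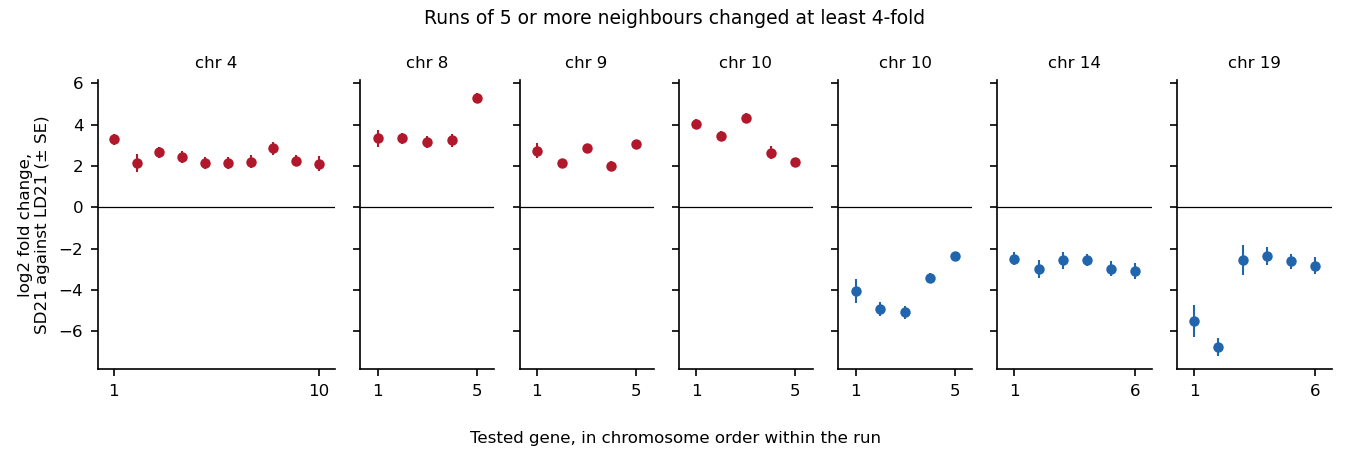
Points are the log2 fold changes of SD21 against LD21 (± SE of the limma fit) of each tested gene in the 7 runs of 5 or more consecutive genes changed at least 4-fold, in chromosome order, red for rises and blue for falls. The run on chromosome 4 holds 10 genes between 2.12 and 3.29, and the run on chromosome 19 falls to -6.76.

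With a limit of 2-fold, 4 runs of 7 or more genes rose and 14 fell as deposited. That balance turned with the scaling, since median-ratio scaling gave 11 rising and 3 falling runs and quantile normalization 13 and 2. At the 4-fold limit, 4 runs of 5 or more genes rose and 3 fell as deposited, median-ratio scaling gave 5 and 3, and quantile normalization 5 and 2. A rising run on chromosome 5 at 1232006 to 1272235 summed to 4093, 2184 and 2761 FPKM in SD21 and 196, 72.8 and 167 in LD21, with 93.7% of its level over all libraries in 1 gene. A rising run on chromosome 18 at 12821157 to 12890179 summed to 169, 140 and 142 against 14.9, 15.1 and 18.5. Its leading gene held 38.0% of its level over all libraries. In SD21 the top gene averaged 77.5 FPKM of a mean sum of 150. In LD21 the top gene was another, with 12.9 of 16.2. Among the runs that fell, 8 genes on chromosome 3 at 1275023 to 1348611 went from 1921, 1561 and 1530 in LD21 to 522, 633 and 418 in SD21, and 7 genes on chromosome 15 at 14448792 to 14520400 from 817, 693 and 763 to 132, 143 and 89.6. Over all libraries, 1 gene held 49.7% of the level of the chromosome 3 run and 1 gene 64.9% of that of the chromosome 15 run. The groups did not overlap in any of these sums. All genes of the runs named here were called in the same direction after quantile normalization, and the runs were picked out after their values were seen.

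Some neighbours changed in opposite directions. Of all adjacent pairs, 0.642% (126 of 19627) had both genes changed at least 4-fold in opposite directions, a lower share than the 0.884% (140 of 15846) of pairs 200 genes apart. In 7 of the adjacent pairs both genes reached 100 FPKM in their higher group. On chromosome 2 at 1058842 to 1059401, 1 such gene read 1405, 906 and 1458 FPKM in SD21 and 14.7, 21.5 and 48.3 in LD21 (log2 fold change 5.57). Its neighbour at 1053785 to 1055271 read 83.2, 148 and 62.7 in SD21 and 525, 585 and 531 in LD21 (-2.56). At day 7 the first had read 42.9 to 63.3 in LD7 and 105 to 161 in SD7. On chromosome 16, the gene at 16123182 to 16126365 read 147, 151 and 164 in SD21 and 12.0, 11.6 and 20.1 in LD21, while its neighbour at 16131146 to 16132181 read 80.7, 88.6 and 75.2 against 472, 483 and 504.

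Most genes that fell by day 21 had a slightly lower mean in SD7 than in LD7. The 277 genes lower at least 16-fold in SD21 had a median difference of -0.25 between SD7 and LD7 on the log2(FPKM + 1) scale, and 84.1% of them were lower in SD7, against 54.2% of all tested genes and 48.3% of genes not called at day 21. The share was 70.4% for falls of 4- to 16-fold, 66.9% for 2- to 4-fold and 58.8% below 2-fold. No library is shared between the days, but genes are not independent replicates, so no p is given. Leaving out each day 7 library in turn gave medians of -0.37 to -0.10 for the deepest falls, all on the same side. The smallest was that without SD7 replicate 2, where 63.9% of these genes were lower in SD7. The shares for falls of 4- to 16-fold and 2- to 4-fold were then 63.9% and 65.3%, so the order by depth of fall was lost without that library, and without LD7 replicate 1 the median of the deepest falls was -0.14 with 72.6% lower. The size of this difference thus rested in part on single libraries.

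The genes that rose furthest had a median day 7 difference on the other side of 0. Those higher at least 16-fold (90) had a median day 7 difference of 0.16 with 38.9% lower in SD7, and quartiles of -0.25 and 0.61. Without SD7 replicate 3 that median was 0.02 with 45.6% lower, and the other 5 omissions gave 0.11 to 0.28. Those higher 4- to 16-fold had a median of 0.04 and 45.6% lower. After quantile normalization the deepest falls had a median of -0.23 with 81.9% lower in SD7, and the largest rises 0.19 with 36.6%.

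**Figure D5:**
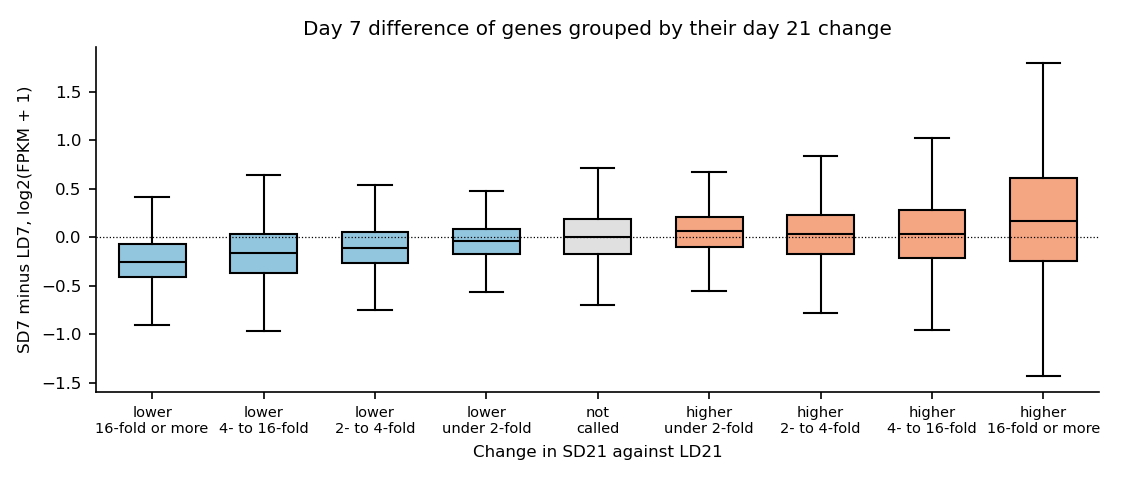
Boxes give the median and quartiles of SD7 minus LD7 on the log2(FPKM + 1) scale (whiskers to 1.5 interquartile ranges, points beyond not drawn) for genes grouped by their change in SD21 against LD21. The medians run from -0.25 for the deepest falls to 0.16 for the largest rises, with 0.01 for genes not called.

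Part of the transcriptome differed little. For 1895 tested genes (8.67%) the 95% interval of the log2 fold change lay within 0.5 of 0, though 353 of them held to this under all 3 scalings. Of the 1668 genes at 100 FPKM or more at day 7, 103 met the limit as deposited. The gene with the highest day 21 level among those within the limit under all 3 scalings, on chromosome 10 at 1782273 to 1786549, read 373, 403 and 415 FPKM in LD21 and 347, 375 and 355 in SD21, with an interval of -0.41 to 0.12.

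The spread between libraries was smallest in LD7 among the 4 groups. The median SD of log2(FPKM + 1) within a group was 0.14 for LD7 and 0.19 for SD7, then 0.20 for LD21 and 0.22 for SD21. Among genes at about 15 FPKM or more in a group, 7.26% had more than a 2-fold range among the SD21 libraries and 6.71% among the LD21 libraries, against 4.65% in SD7 and 3.00% in LD7.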

How the data were processed

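RNA-seq libraries from shoot tips of 12 replicates (LD7, SD7, LD21, SD21, 3 each, 5 vines a replicate) were used, grouped by sample title. The deposited values are FPKM per gene, per the file headers. The authors named Cufflinks 2.2.1, TopHat2 2.0.13, Bowtie2 2.2.4, cutadapt 1.8.1 and FastQC 0.11.3 as their tools, per the submitters' processing notes. Not given in the sources used here are parameters, genome build, annotation, strand use and the treatment of reads shared by near-identical genes. Values are relative to each library, so very abundant genes lower all others. Very short loci are uncertain with short reads.

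Each library's own file was joined by identifier. The file of SD21 replicate 3 carries the heading of replicate 2. It was kept as replicate 3, because no more than 1 value above 0 coincided in any pair of replicates. Absolute depth is unknown, so no counting interval is given.

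With limma 3.58.1 in R 4.3.3, group means of log2(FPKM + 1) were modelled over the 12 libraries together (eBayes with trend and robust, Benjamini-Hochberg adjusted p under 0.05), after tests on simulated data. Fold changes are on the log2(FPKM + 1) scale and are compressed for genes of low level. Genes named by identifier are the 2 largest rises and 2 largest falls among called genes whose SD21 and LD21 libraries do not overlap and whose higher group averages 20 FPKM or more. Lists by function and tissue markers had been planned but require names, and were left out. A value of 0 is read only as listed at 0. Runs of neighbours, level and span classes and the day 7 range were chosen after seeing the data, and all choices were made with earlier results of these data known. Alternatives were 2 scalings, a pseudocount of 0.1, other filters, fewer libraries, no trend, the replicate number as a block and each library left out. Plots were made in matplotlib 3.10.9 under Python 3.11.15.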

Additional observations from a re-analysis of the deposited data

Results flagged for a closer look

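The photoperiod effect of all 4 genes named by identifier was larger at day 21 than at day 7, by a direct test of the difference between the days (SD21 minus LD21, less SD7 minus LD7, limma with Benjamini-Hochberg adjustment). The difference on the log2(FPKM + 1) scale was 7.96 ± 1.09 (SE, adjusted p = 0.00017) for VIT_00s0256g00100 and 8.21 ± 0.83 (adjusted p = 1.9e-05) for VIT_00s0226g00170. It was -9.14 ± 0.42 (adjusted p = 7.4e-07) for VIT_07s0130g00030. For VIT_09s0018g00510, listed at 0 in SD21, the fitted value of -8.69 ± 0.30 (adjusted p = 1.6e-07) depends on the added 1 and is no bound. These genes were taken for their day 21 change, so a larger effect at day 21 is partly built in. Their day 7 fold changes were 0.53, 0.18, 0.01 and -0.25 in the same order (adjusted p = 0.65 to 1.00).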

How the results depend on the processing

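The call counts stayed within 1.5 times of the reported ones, in total and in each direction, under every alternative run except the added 2-fold limit, which left 8781 genes, 3092 higher and 5689 lower. Leaving out each library gave 13797 to 14856 calls. The replicate number as a block gave 14781 calls, 5345 higher. Whether the numbers pair the samples is not known. The deviations of same-numbered LD21 and SD21 libraries correlated at 0.20, 0.03 and 0.03, which cannot decide it. With only the 6 day 21 libraries in the fit, 13628 genes were called. The 4 genes named by identifier kept their direction and call under all alternatives run, with adjusted p up to 0.00036. The share of higher calls moved with the scaling, from 36.0% to 50.8% after quantile normalization, and the text gives both. Scaling, added after seeing the data, kept the sign of the day 7 difference of the deepest falls and largest rises. Counts by functional gene list were planned under each alternative and were not run. FPKM without depth limit what can be said of genes near 0.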
